A study of Mus musculus with 50 samples.

Results

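The genes described here are a set of 36 named genes of erythroid precursors, the nucleated cells that mature into red blood cells. The set holds embryonic and adult globins, transcription factors, the erythropoietin receptor, haem and mitochondrial carrier genes, membrane and cytoskeleton genes, and enzymes and late factors of the red cell. Members were found on the arrays by gene symbol, with the brightest probe over all 50 arrays where a gene had several. Of the 36, 33 were found by the listed symbol and 1, Epb42, by its updated symbol, so that 34 were measured among 30744 genes tested. Ahsp and Epb41 are the other two members. Hbb-bt was read on a probe that is annotated to Hbb-bt, Hbb-bs and their older names, so its level is that of the adult beta globins together.

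Pregnant CD-1 mice were dosed by oral gavage each day from gestational day 1.5 to gestational day 17.5, when livers were taken. Controls received vehicle, and exposed dams received perfluorooctanoic acid at 1 mg/kg/day (PFOA1) or 5 mg/kg/day (PFOA5), or hexafluoropropylene oxide dimer acid at 2 mg/kg/day (GenX2) or 10 mg/kg/day (GenX10). PFOA is a perfluorinated carboxylic acid and GenX a perfluorinated ether carboxylic acid, and their doses differ, so their values stand side by side here without a comparison between them. Total RNA of the left lateral lobe of 5 dams per group, and of fetal livers labelled female with 1 per litter, was hybridised to Affymetrix whole-transcript arrays; fetal groups held 5 arrays except PFOA5, with 6, and GenX10, with 4. No animal carried a transgene or other allele by the labels, and although dam and fetus of a pair were both used, no label says which belong together. P-values therefore measure the spread between livers of separate dams and litters. A fetus was exposed through its dam, and each array held whole liver tissue of mixed cell types.

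In late gestation the fetal liver is the main site of red cell formation, whereas in the adult mouse this takes place in bone marrow and spleen. Erythropoietin acts through its receptor on erythroid progenitors, and the factors Gata1, Tal1, Lmo2, Zfpm1 and Klf1 then switch on globin, haem and membrane genes. The first red cells, which arise in the yolk sac, use the embryonic globins Hbb-y, Hbb-bh1 and Hba-x, and the red cells made in the fetal liver use adult globins, with Bcl11a among the factors that hold the embryonic genes silent. In the RefSeq annotation of GRCm38.p6 the beta-type genes lie together, Hbb-bt at chr7:103812524-103813923, Hbb-bh1 at chr7:103841638-103843162 and Hbb-y at chr7:103851754-103853207, and Hba-x at chr11:32276600-32278116. The carbonic anhydrase genes Car1 (chr3:14766214-14808365) and Car2 (chr3:14886269-14900770) are neighbours, and Slc4a1 lies at chr11:102348820-102365281, Slc25a37 at chr14:69241848-69285544, Tal1 at chr4:115056426-115071755 and Zfpm1 at chr8:122281856-122337862.

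Promoter windows of 250 bases before the annotated start, from RefSeq on GRCm38.p6 (the assembly that mm10 names), were at hand for 26 of the 36 genes and were searched on both strands for 4 short motifs. These were AGATAA and TGATAA, the core that GATA factors bind, which read TTATCT and TTATCA on the other strand; CCNCNCCC, the core of the motif that Klf1 binds; and CAGCTG, an E-box. Some genes have more than 1 annotated start, and a gene was counted once where any of its windows held the motif. AGATAA occurred in 8 of the 26 genes (30.8%) against 11.4% of all 27025 genes with a window, and TGATAA in 7 (26.9%) against 9.21%. Either form occurred in 14 of the 26 genes against 18.8% of all genes, with Kel holding both. CCNCNCCC occurred in 17 (65.4% against 48.5%) and CAGCTG in 4 (15.4% against 14.7%). Over all 32851 windows the shares were 9.99% for AGATAA, 7.94% for TGATAA, 16.6% for either, 45.9% for CCNCNCCC and 13% for CAGCTG. A match describes letters in the window and shows no binding. The 6 windows shown belong to the globins with a promoter in the table, to the factor Klf1, to the haem gene Alas2 and to the membrane gene Rhag, which was far apart between the tissues. Capitals mark every match to any of the 4 motifs, read 5′ to 3′ on the gene's strand.
Hbb-y, chr7:103853208-103853457, minus strand: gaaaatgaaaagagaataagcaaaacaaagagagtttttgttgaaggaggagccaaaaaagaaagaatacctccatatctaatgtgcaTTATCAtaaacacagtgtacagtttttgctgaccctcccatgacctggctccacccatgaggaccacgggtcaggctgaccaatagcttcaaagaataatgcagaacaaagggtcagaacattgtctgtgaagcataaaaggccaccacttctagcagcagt
Hba-x, chr11:32276350-32276599, plus strand: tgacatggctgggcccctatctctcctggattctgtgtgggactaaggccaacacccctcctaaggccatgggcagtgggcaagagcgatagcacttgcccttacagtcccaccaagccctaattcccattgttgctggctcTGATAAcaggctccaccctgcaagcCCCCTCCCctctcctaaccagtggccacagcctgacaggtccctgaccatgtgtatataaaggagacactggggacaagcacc
Hbb-bt, chr7:103813924-103814173, minus strand: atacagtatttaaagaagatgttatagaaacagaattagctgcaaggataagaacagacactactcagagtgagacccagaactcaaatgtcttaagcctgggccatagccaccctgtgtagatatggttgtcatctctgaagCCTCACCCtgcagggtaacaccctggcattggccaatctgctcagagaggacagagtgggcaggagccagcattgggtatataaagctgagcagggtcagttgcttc
Klf1, chr8:84901732-84901981, plus strand: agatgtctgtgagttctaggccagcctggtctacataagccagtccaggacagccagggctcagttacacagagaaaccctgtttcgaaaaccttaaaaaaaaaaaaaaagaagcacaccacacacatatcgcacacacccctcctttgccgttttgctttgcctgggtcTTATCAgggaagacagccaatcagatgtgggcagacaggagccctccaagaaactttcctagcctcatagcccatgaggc
Alas2, chrX:150547167-150547416, plus strand: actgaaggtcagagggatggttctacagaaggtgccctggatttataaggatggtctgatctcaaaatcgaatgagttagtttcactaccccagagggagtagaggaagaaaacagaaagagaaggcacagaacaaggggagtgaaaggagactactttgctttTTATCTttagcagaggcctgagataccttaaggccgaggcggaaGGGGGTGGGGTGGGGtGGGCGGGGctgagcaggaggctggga
Rhag, chr17:40810899-40811148, plus strand: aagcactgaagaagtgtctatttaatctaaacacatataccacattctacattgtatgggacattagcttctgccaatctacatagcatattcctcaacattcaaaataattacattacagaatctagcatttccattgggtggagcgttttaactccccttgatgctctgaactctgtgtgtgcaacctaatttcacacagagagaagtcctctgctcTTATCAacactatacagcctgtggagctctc
Hbb-y, Klf1 and Rhag each had 1 TGATAA match, all 3 on the opposite strand, and none of the other motifs. Hba-x had 1 TGATAA and 1 CCNCNCCC match, Hbb-bt had 1 CCNCNCCC match, and Alas2 had 1 AGATAA match and 4 CCNCNCCC matches, of which the first 3 overlap in the window as printed.

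Levels are log2 signals, and a difference of 1 is a doubling. A probe was taken as above background on an array where it exceeded the 95th percentile of that array's 5222 negative controls, a mark that lay between 7.37 and 7.68 on maternal arrays and between 7.66 and 8.18 on fetal ones. Arrays of one group correlated between 0.9861 and 0.9969. For 2 fetal arrays, PFOA5 replicate 6 and GenX2 replicate 5, the source name gives another group than the title, and the title was followed. Xist was low on fetal control replicate 3 and fetal GenX2 replicate 2, and lay between 10.52 and 11.48 on the other 23 fetal arrays, which carry the same label of female. Where these arrays decide a call, the value without them is given.

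Of the 34 members, 32 were higher in fetal than in maternal control liver and 0 were lower (limma over all 10 groups, Benjamini-Hochberg adjusted p under 0.05; such a difference is termed called in what follows). For comparison, 62.2% of all 30744 genes were called, 20% higher and 42.2% lower in fetal liver. The median difference of the members was 2.14 on the log2 scale against -0.13 for all genes. The background mark was itself higher on fetal control arrays, between 7.86 and 7.94, than on maternal ones, between 7.57 and 7.65. The part of background in the differences of dim members was not tested. Values on the 5 fetal control arrays lay wholly above those on the 5 maternal control arrays for 31 members (15.5% of all genes), the exceptions being the embryonic globins Hbb-y, Hbb-bh1 and Hba-x. In control fetal liver 20 members were above background on every array, 7 on some and 7 on none, and in control maternal liver 2, 2 and 30. In bulk tissue more cells of a type and more RNA per cell cannot be told apart.

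**Figure D1:**
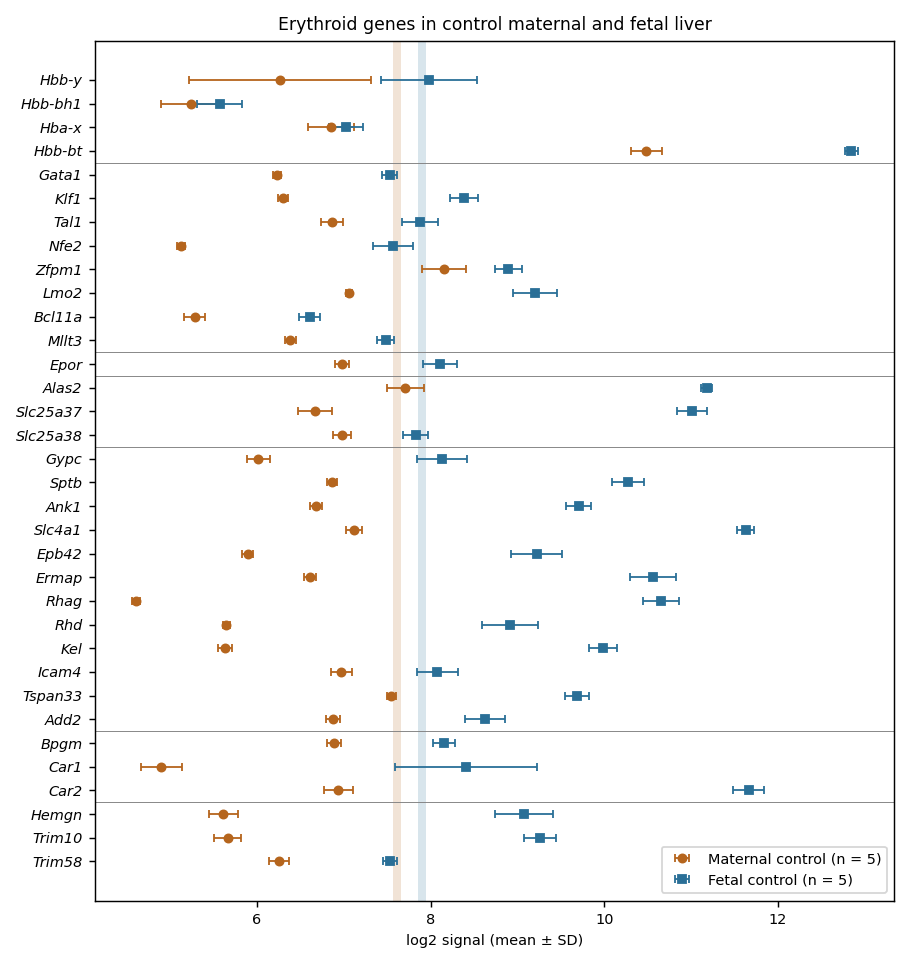
Mean log2 signal of each of the 34 measured members in 5 maternal control livers (circles) and 5 fetal control livers (squares), with bars for the SD, grouped by role. The vertical bands span the 95th percentile of the negative controls over the control arrays of each tissue. Slc4a1, Rhag, Alas2, Car2 and Trim10 are among the genes that pass the band in fetal liver, whereas Hbb-bh1, Hba-x, Gata1, Nfe2, Bcl11a, Mllt3 and Trim58 stay below it in both tissues.

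Among the globins, the adult beta globin probe was high in both tissues and the embryonic genes were at or near background. Hbb-bt read 10.61, 10.68, 10.48, 10.44 and 10.21 on the maternal control arrays and 12.89, 12.87, 12.85, 12.71 and 12.91 on the fetal control arrays. Every fetal value lay above every maternal one, and the difference was 2.36 (SE 0.14, adjusted p = 4.85e-19), or 5.14-fold. With a highest mean of 13.53 for any gene on these arrays, the fetal level has little range left above it. Hbb-y, the embryonic epsilon-type beta globin, read 8.11, 6.06, 5.93, 5.66 and 5.57 in maternal and 7.78, 8.68, 7.18, 8.06 and 8.21 in fetal controls. Maternal control replicate 1 stood well above the next maternal array, at 6.06, and inside the fetal range, so the groups overlapped, and the probe passed background on 3 of 5 fetal and 1 of 5 maternal arrays. The difference was 1.71 (SE 0.32, adjusted p = 1.51e-05), and no fold is given because most maternal values lay below background.

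Hbb-bh1, a further embryonic beta-like globin, was not above background on any of the 50 arrays. It read 5.75, 5.14, 4.90, 5.41 and 5.00 in maternal and 5.82, 5.72, 5.70, 5.19 and 5.43 in fetal controls, values that overlap. Its difference of 0.33 had a 95% confidence interval of 0.02 to 0.64 and missed the threshold (adjusted p = 0.0586); without maternal control replicate 1 it was 0.46 and called, as it also was without maternal control replicate 4 (0.37) or fetal control replicate 4 (0.43) or 5 (0.37) and under repeated quantile normalization, median centring or array weights. Hba-x, the embryonic zeta-type alpha globin, was also below background on all arrays, at 7.25, 7.01, 6.64, 6.75 and 6.63 in maternal and 6.92, 7.24, 6.75, 7.11 and 7.10 in fetal controls. Its groups overlapped too, with a difference of 0.17 (95% interval -0.06 to 0.40, adjusted p = 0.189). Without maternal control replicate 1, whose value was the highest of the maternal controls for all 3 embryonic globins, the Hba-x difference was 0.27 and called.

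All 8 regulators were called higher in fetal liver, with a median difference of 1.31, although 4 of them were not above background in either tissue. Klf1, which switches on adult beta globin and many red cell genes, read 6.34, 6.23, 6.37, 6.27 and 6.30 in maternal and 8.48, 8.24, 8.45, 8.18 and 8.57 in fetal controls. The fetal arrays were all above background and the maternal ones all below, with no overlap, a difference of 2.08 (SE 0.12, adjusted p = 1.15e-19) and a fold of at least 1.71. Such a lower bound sets the mean of the brighter group against the mean, over the dim group's arrays, of the higher of the background mark and the probe's own signal. Gata1, the central factor of the lineage, read 6.20, 6.31, 6.21, 6.23 and 6.21 in maternal and 7.51, 7.51, 7.55, 7.42 and 7.65 in fetal controls. All 10 values were below background, but the groups did not overlap and the probe was called, with a difference of 1.30 (SE 0.07, adjusted p = 5.02e-21).

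Bcl11a, the repressor of embryonic globin genes, read 5.44, 5.30, 5.34, 5.22 and 5.12 in maternal and 6.66, 6.71, 6.71, 6.47 and 6.49 in fetal controls. It too was below background in both tissues, with no overlap and a difference of 1.32 (SE 0.12, adjusted p = 2.45e-13). Nfe2, the large subunit of a factor that acts at the globin locus control regions, and Mllt3, a subunit of an elongation complex, were likewise below background in both, with differences of 2.44 and 1.1. Lmo2, which bridges Tal1 and Gata1 in one complex, differed by 2.14 (at least 3.01-fold), Tal1, a helix-loop-helix factor of blood precursors, by 1.01 (at least 1.2-fold) and Zfpm1, the cofactor of Gata1, by 0.74 (1.67-fold). Zfpm1 was the regulator above background on every array of both tissues. The receptor gene Epor read 6.90, 6.90, 7.09, 7.01 and 6.99 in maternal and 8.36, 8.21, 8.01, 7.84 and 8.12 in fetal controls, passed background on 4 of 5 fetal and 0 of 5 maternal arrays, and differed by 1.13 (SE 0.08, adjusted p = 6.72e-16).

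The haem and carrier genes and the membrane genes held many of the large log2 differences. Alas2, the erythroid form of the first enzyme of haem synthesis, read 7.86, 7.89, 7.83, 7.42 and 7.55 in maternal and 11.16, 11.25, 11.18, 11.09 and 11.20 in fetal controls, a difference of 3.47 (SE 0.14, adjusted p = 5.26e-25) or 11.1-fold, with 3 of 5 maternal arrays above background. Slc25a37, mitoferrin 1, which brings iron into mitochondria, read 6.86, 6.76, 6.79, 6.53 and 6.41 against 10.94, 11.08, 11.27, 10.91 and 10.84 (difference 4.34, SE 0.10, at least 10.5-fold). In both genes the tissues stood far apart, and the maternal controls were below background for Slc25a37 and around it for Alas2. Slc25a38, a mitochondrial carrier needed for haem synthesis, differed by 0.85 (at least 1.16-fold).

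All 12 membrane and cytoskeleton genes were called higher, with a median difference of 3.30. Rhag, the Rh-associated glycoprotein, differed by 6.04 (SE 0.11, adjusted p = 1.4e-38), at least 8.21-fold, from 4.55, 4.67, 4.59, 4.64 and 4.58 in maternal to 10.67, 10.94, 10.74, 10.47 and 10.43 in fetal controls. Slc4a1, the band 3 anion exchanger, read 7.07, 7.07, 7.21, 7.22 and 7.02 and 11.73, 11.69, 11.63, 11.47 and 11.64, a difference of 4.51 (SE 0.06, adjusted p = 2.18e-43, at least 16.2-fold). Both genes were below background on every maternal control array and well above it on every fetal one. Kel, the Kell blood group peptidase, read 5.69, 5.60, 5.71, 5.65 and 5.50 and 10.03, 10.16, 10.11, 9.84 and 9.78 (difference 4.35, at least 5.17-fold). Ermap, a blood group membrane protein of the immunoglobulin family, read 6.51, 6.56, 6.65, 6.65 and 6.68 and 10.50, 10.77, 10.89, 10.39 and 10.26 (difference 3.95, at least 7.72-fold). Rhd, which carries Rh antigens, read 5.61, 5.71, 5.60, 5.67 and 5.66 and 9.11, 9.15, 9.20, 8.51 and 8.63, a difference of 3.27 (SE 0.13, adjusted p = 2.61e-25). In each of these 3 genes the groups were apart, with fetal control replicates 4 and 5 the lowest of the fetal values.

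The spectrin skeleton and its anchors followed, each without overlap between the control groups. Beta spectrin (Sptb) differed by 3.41 (at least 6.32-fold), protein 4.2 (Epb42) by 3.33 (at least 3.05-fold) and ankyrin 1 (Ank1) by 3.03 (at least 4.27-fold). Smaller differences were those of the tetraspanin Tspan33 (2.13), glycophorin C (Gypc, 2.11), beta adducin (Add2, 1.75) and the adhesion molecule Icam4 (1.11). Of the enzymes, Car2, a carbonic anhydrase, read 7.20, 6.89, 6.74, 6.92 and 6.92 and 11.74, 11.83, 11.73, 11.37 and 11.65 (difference 4.73, SE 0.17, adjusted p = 3.33e-27, at least 16.6-fold). Car1, the other red cell carbonic anhydrase, read 4.75, 4.64, 5.27, 4.94 and 4.90 and 7.44, 9.34, 8.58, 7.71 and 8.98 (difference 3.51, SE 0.33, adjusted p = 2.17e-12, at least 1.74-fold). Fetal Car1 spread over 7.44 to 9.34 among the controls, unlike fetal Car2. Bpgm, which makes the phosphoglycerate that lowers the oxygen affinity of haemoglobin, differed by 1.26.

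The late erythroid factors were called as well. Trim10, a protein of terminal erythroid differentiation, read 5.55, 5.59, 5.76, 5.52 and 5.88 in maternal and 9.35, 9.34, 9.47, 9.08 and 9.05 in fetal controls (difference 3.60, at least 3.13-fold), with no overlap. Hemgn, a nuclear protein of the lineage, differed by 3.46 (at least 2.75-fold). Trim58, a ubiquitin ligase that acts as the nucleus is expelled, differed by 1.28 but was below background in both tissues.

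Further erythroid genes, taken from lists of pathway genes, differed in the same direction for the most part. The counts below stand against 20% of all genes called higher in fetal liver and 42.2% called lower. Of 18 other regulators, 14 were called higher in fetal control liver (median 1.15), among them E2f2 (2.27), Sox6 (2.25) and Myb (2.00), while Stat5a, Stat5b and Gata2 were lower. Of 13 other membrane genes 12 were higher (median 1.36), with Tmcc2 at 3.33 and the glucose transporter Slc2a1 at 3.0, and Tfr2, an iron sensor that hepatocytes also express, was lower (-1.33). Of 21 maturation and haem genes 18 were higher (median 1.34), with the ubiquitin enzyme Ube2o at 2.02 and ferrochelatase (Fech) at 2.33, and Hagh was lower (-0.58). Of 3 other globin genes, Hbq1b (1.20) and Hbq1a (1.45) were called and Hbb-bh2 (-0.08) was not. Marker genes of other cells differed to unlike extents. Higher in fetal liver were 19 of 19 proliferation genes, 12 of 12 granulocyte genes and 8 of 9 megakaryocyte genes. Of 14 hepatocyte genes 8 (57.1%) were lower and 1 higher, and of 12 macrophage and Kupffer cell genes 8 were higher and 2 lower. Of 7 B lymphoid genes 2 were higher and 0 lower, and of 9 endothelial genes 3 were higher and 1 lower. The mean level of the proliferation list lay between 6.08 and 6.64 on maternal and between 8.55 and 9.04 on fetal control arrays, that of the granulocyte list between 5.76 and 5.96 and between 8.36 and 8.57, and that of the hepatocyte list between 11.85 and 11.90 and between 11.39 and 11.51. The part of other cells in the members' difference was not tested.

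Exposure left most members of the fetal liver without a called change. Called members numbered 0 of 34 under PFOA1 (0.953% of all genes called), 0 under PFOA5 (3.39%), 2 under GenX2 (6.73%) and 0 under GenX10 (9.27%), by limma over the 5 fetal groups, and at an unadjusted p under 0.05 there were 1, 1, 5 and 1. Under GenX2 3.9% of all genes were called higher and 2.83% lower, so the members' 2 calls, both higher, are near the background. The 95% intervals of the log2 change reached 0.26, 0.25, 0.26 and 0.27 to either side at the median member. They are not adjusted for the number of genes tested. For most members a change of that size or smaller would therefore not be called, and a somewhat larger one could also be missed. The 4 comparisons share the same control arrays. Relative to control, 6 of 34 members lay above 0 under PFOA1 (median -0.06, all genes 0.02), 4 under PFOA5 (median -0.13, all genes -0.01), 28 under GenX2 (median 0.11, all genes -0.03) and 20 under GenX10 (median 0.06, all genes -0.06).

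**Figure D2:**
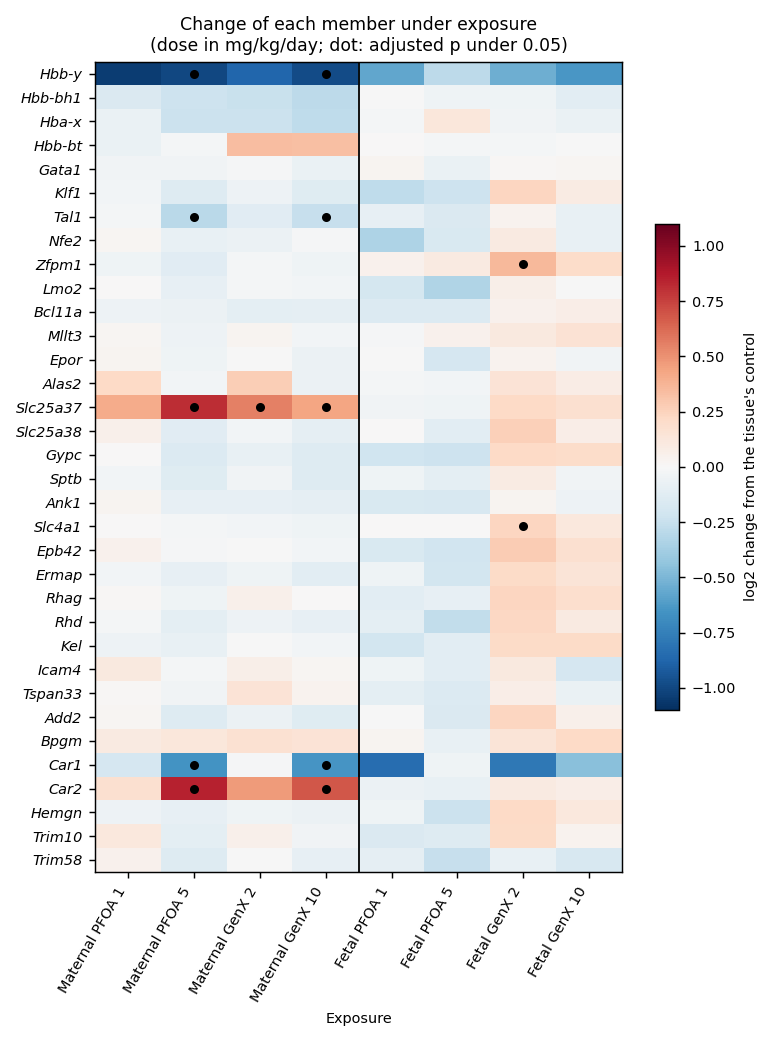
Log2 change of each of the 34 members (rows, grouped by role) against the control of the same tissue in the 4 maternal and 4 fetal exposure comparisons (columns), with a dot where limma's adjusted p was under 0.05. Dots stand for Slc25a37, Car2, Car1, Tal1 and Hbb-y in maternal liver and for Slc4a1 and Zfpm1 in fetal liver under GenX2.

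Fetal embryonic globins gave no called change. Hbb-y read 8.15, 7.57, 7.07, 7.22 and 7.06 on the fetal PFOA1 arrays and lay between 7.14 and 8.03 (median 7.88) on the 6 arrays of fetal PFOA5. Under GenX2 it read 8.10, 7.17, 6.79, 8.19 and 6.95, and under GenX10 8.13, 7.20, 7.42 and 6.62. These groups overlap with the controls, and the changes from control were -0.57, -0.29, -0.54 and -0.64 under PFOA1, PFOA5, GenX2 and GenX10, none of them called (adjusted p = 0.732, 0.792, 0.344 and 0.215). The probe passed background on 1 of 5, 3 of 6, 2 of 5 and 1 of 4 exposed arrays. Hbb-bh1 lay between 5.19 and 6.36 and Hba-x between 6.52 and 7.38 over the 25 fetal arrays, all below background, so a change in either would be compressed.

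The adult beta globin probe was high in all fetal groups. Hbb-bt read 12.98, 12.83, 12.79, 12.81 and 12.83 on the fetal PFOA1 arrays and lay between 12.70 and 12.89 (median 12.84) on the 6 arrays of fetal PFOA5. Under GenX2 it read 12.82, 12.76, 12.92, 12.82 and 12.79, and under GenX10 12.86, 12.86, 12.85 and 12.79. All of these values lie in a narrow band around the controls, with fetal PFOA1 replicate 1 the highest of its group. The group means lay between 12.82 and 12.85.

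**Figure D3:**
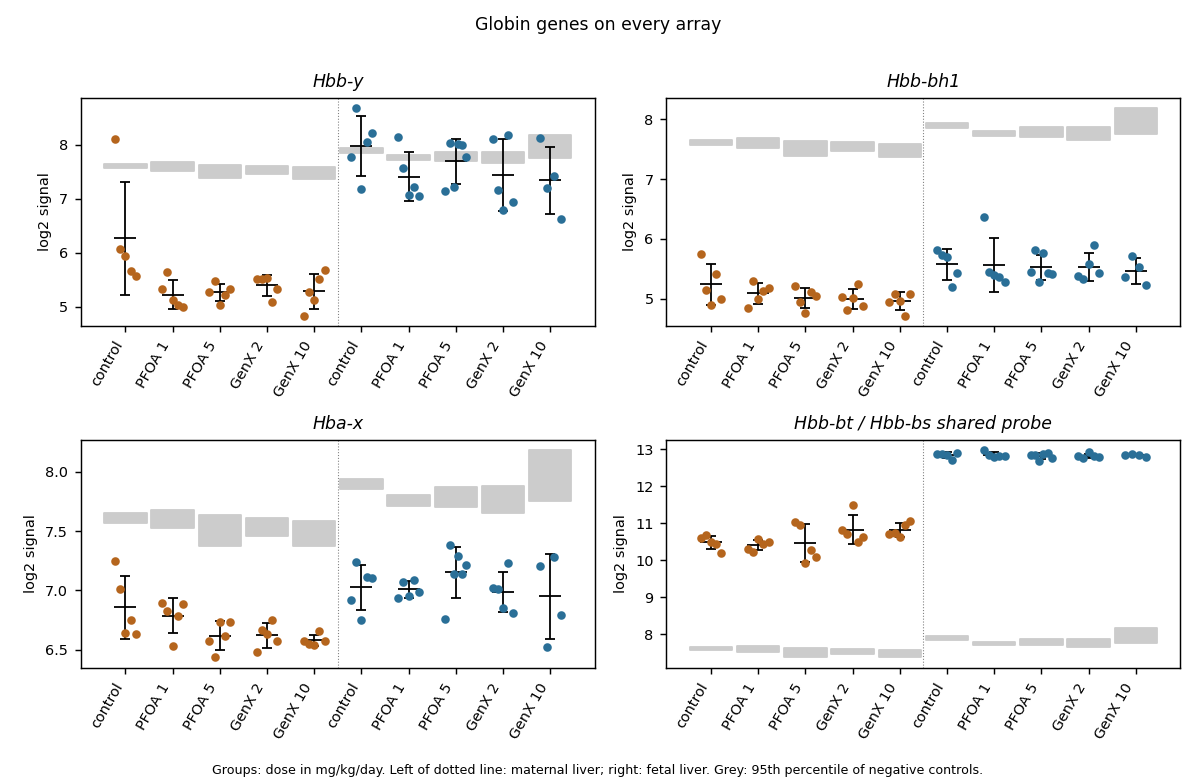
Log2 signal of Hbb-y, Hbb-bh1, Hba-x and the shared adult beta globin probe (Hbb-bt) on each of the 50 arrays, by tissue and treatment group, with the mean and SD of each group; the grey band spans the 95th percentile of the negative controls. Hbb-y in maternal control replicate 1 (8.11) stands apart from the other maternal arrays, and the adult probe lies far above the band on every array.

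The fetal regulators and the receptor likewise overlapped with their controls, and Zfpm1 under GenX2 was the one call among them. Klf1 read 8.42, 8.07, 7.96, 8.23 and 7.86 on the fetal PFOA1 arrays and lay between 7.85 and 8.36 (median 8.22) on the 6 arrays of fetal PFOA5. Under GenX2 it read 8.42, 8.57, 8.42, 9.35 and 8.36, and under GenX10 8.41, 8.64, 8.25 and 8.60. GenX2 replicate 4 stood above all other fetal arrays for Klf1, and the changes were -0.28, -0.23, 0.24 and 0.09 (adjusted p = 0.724, 0.578, 0.382 and 0.729). Gata1 lay between 7.28 and 7.80 and Bcl11a between 6.08 and 7.15 over the fetal arrays, with changes between -0.07 and 0.03 for Gata1 and between -0.15 and 0.07 for Bcl11a. Epor read 8.33, 8.26, 7.90, 8.13 and 7.90 on the fetal PFOA1 arrays and lay between 7.75 and 8.05 (median 7.96) on the 6 arrays of fetal PFOA5. Under GenX2 it read 8.06, 8.30, 8.01, 8.40 and 7.97, and under GenX10 7.93, 8.19, 8.04 and 8.13. Epor changes were -0.01, -0.19, 0.04 and -0.04, none called, and the exposed arrays overlapped the controls in each group.

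Zfpm1 rose by 0.36 under GenX2 (SE 0.10, 95% interval 0.15 to 0.56, adjusted p = 0.0274, 1.28-fold). It read 9.13, 8.85, 8.83, 8.72 and 8.94 on the control arrays and 9.21, 9.44, 8.97, 9.51 and 9.13 on the GenX2 arrays. Control replicate 1 lay inside the GenX2 range, so the groups overlapped. The call was lost without control replicate 2, 3 or 4, without GenX2 replicate 2 (0.31) or GenX2 replicate 4 (0.29), with quantile normalization repeated (0.24), with only the groups compared in the fit, and without the arrays of low Xist (0.29). Under GenX10 Zfpm1 read 8.97, 9.07, 9.22 and 9.10, a change of 0.20 that was not called (adjusted p = 0.223). Under PFOA1 it read 8.98, 9.23, 8.77, 8.82 and 8.91, and under PFOA5 it lay between 8.87 and 9.15 (median 8.97) on the 6 arrays, with changes of 0.05 and 0.10. Of the other regulators, Nfe2 was the member with an unadjusted p under 0.05 under PFOA1, at a change of -0.34 (adjusted p = 0.573).

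Slc4a1 rose by 0.24 under GenX2 (SE 0.07, 95% interval 0.10 to 0.38, adjusted p = 0.0354, 1.18-fold). The GenX2 arrays read 11.81, 11.92, 11.74, 12.06 and 11.80, all above the highest control value of 11.73 (3.49% of all genes were higher without overlap). The call was lost without control replicate 3, 4 or 5, without GenX2 replicate 2 (0.22) or replicate 4 (0.19), with the 2 arrays of conflicting labels placed by source name (0.22), without the arrays of low Xist (0.22), and with an intensity trend, repeated quantile normalization or only the groups compared in the fit. Under GenX10 Slc4a1 read 11.73, 11.75, 11.76 and 11.75, a change of 0.11 (adjusted p = 0.309), and under PFOA1 11.79, 11.72, 11.67, 11.62 and 11.39, a change of 0.01. Under PFOA5 it lay between 11.55 and 11.70 (median 11.67) on the 6 arrays, a change of 0.01. These 3 groups overlap with the controls.

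The membrane genes as a group are given as a description. Above 0 against control lay 12 of 12 under GenX2 (median 0.22, 1 called) and 8 of 12 under GenX10 (median 0.11, 0 called), and 1 of 12 under PFOA1 (median -0.11, 0 called) and 1 of 12 under PFOA5 (median -0.15, 0 called). Rhd read 9.21, 8.85, 8.67, 8.88 and 8.43 on the fetal PFOA1 arrays and lay between 8.35 and 8.96 (median 8.66) on the 6 arrays of fetal PFOA5. Under GenX2 it read 9.08, 9.34, 8.84, 9.72 and 8.76, and under GenX10 8.96, 9.20, 8.87 and 9.05. Rhd changes were -0.11, -0.27, 0.23 and 0.10, all uncalled, and every group overlapped the controls. Rhag, read 10.84, 10.80, 10.77, 11.41 and 10.63 under GenX2, had replicate 4 far above the others, and its changes were -0.12, -0.09, 0.24 and 0.18, also uncalled.

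Alas2 read 11.30, 11.14, 11.15, 11.28 and 10.93 on fetal PFOA1 arrays and lay between 11.08 and 11.19 (median 11.15) on the 6 arrays of PFOA5. The GenX2 arrays read 11.39, 11.27, 11.19, 11.55 and 11.25, and the GenX10 arrays 11.38, 11.08, 11.25 and 11.35. Its changes of -0.02, -0.03, 0.15 and 0.09 were not called, and all groups overlapped the controls. Under GenX2 the carriers Slc25a37 (0.22, adjusted p = 0.246) and Slc25a38 (0.26, adjusted p = 0.154) also had an unadjusted p under 0.05 without a call. Bpgm, named here after its values were seen, read 8.14, 8.27, 8.27, 7.97 and 8.12 in controls and 8.42, 8.49, 8.21 and 8.38 under GenX10. Its change of 0.22 missed the threshold (adjusted p = 0.0698) and passed it without control replicate 3, without GenX10 replicate 3, with a filter on dim genes or with arrays centred on their median. Car1 varied most among fetal arrays: it read 8.13, 8.37, 7.58, 7.39 and 6.40 under PFOA1, 7.33, 7.0, 7.85, 7.47 and 8.46 under GenX2 and 9.12, 6.44, 8.19 and 8.04 under GenX10, and lay between 8.08 and 8.58 (median 8.43) on the 6 arrays of PFOA5. Trim58 was the member with an unadjusted p under 0.05 under PFOA5, at a change of -0.26 (adjusted p = 0.242).

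Members of one fetal liver tended to deviate together, and single livers carried much of the group medians. On GenX2 replicate 4, 31 of 34 members lay above the control mean (median deviation 0.40), on PFOA1 replicate 1 and control replicate 2 30 each (0.17 and 0.15), and on GenX10 replicate 2 29 (0.17). On PFOA1 replicate 5 1 of 34 lay above it (median -0.39), on control replicate 4 2 (-0.18) and on PFOA5 replicate 3 4 (-0.39). The median deviation of all genes stayed between -0.11 and 0.05 on every fetal array. Without GenX2 replicate 4, 22 of 34 members lay above 0 under GenX2 with a median of 0.05, and the membrane median was 0.09, with 11 of 12 above 0. Without PFOA1 replicate 5, 16 of 34 lay above 0 under PFOA1, and 4 of 12 membrane genes with a median of -0.01. Without PFOA5 replicate 3, 6 of 34 lay above 0 under PFOA5, with a median of -0.08. Under GenX10, 19 of 34 lay above 0 without GenX10 replicate 2 (median 0.03). Leaving out a shared control array also moved the counts, to 25 of 34 under GenX10 without control replicate 1 (median 0.08).

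Markers of other cells moved with some of these livers. Among the 25 fetal arrays ranked from the highest mean level, GenX2 replicate 4 was 1 for the proliferation list and 24 for the hepatocyte list, and GenX10 replicate 2 was 2 and 23. PFOA5 replicate 3 was 24 for proliferation and 1 for hepatocyte genes, and PFOA1 replicate 5 was 25 and 2. Control replicate 2 and PFOA1 replicate 1, also high for the members, were 4 and 6 and 7 and 10, and control replicate 4, low for the members, was 16 and 8. The mean level of the hepatocyte list ranged over 11.34 to 11.59, 11.28 to 11.75, 11.18 to 11.37 and 11.26 to 11.45 under PFOA1, PFOA5, GenX2 and GenX10, and that of the proliferation list over 8.17 to 8.92, 8.28 to 8.92, 8.60 to 9.46 and 8.73 to 9.20. Of 14 hepatocyte genes, 1 rose under PFOA1, 1 fell under PFOA5, 1 rose (Apoa2) and 3 fell (Trf, Cps1 and Apoa1) under GenX2, and 2 fell under GenX10. Of 12 macrophage and Kupffer cell genes, 0, 1, 1 and 2 fell under PFOA1, PFOA5, GenX2 and GenX10, and 0 rose in each. Over all genes, 0.953%, 3.39%, 6.73% and 9.27% were called in either direction. No gene of the proliferation, granulocyte or megakaryocyte lists was called by limma in any fetal exposure, and at an unadjusted p under 0.05 the proliferation list had 0, 0, 2 and 0 genes under PFOA1, PFOA5, GenX2 and GenX10, the granulocyte list 2, 3, 2 and 1, and the megakaryocyte list 0, 0, 0 and 1. Relative to control, 0, 0, 19 and 18 of 19 proliferation genes lay above 0 in that order, with medians of -0.13, -0.14, 0.17 and 0.16. These counts were 2, 1, 4 and 4 of 12 for granulocyte genes and 4, 2, 3 and 3 of 9 for megakaryocyte genes. The part of cell composition in the members' values was not tested.

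**Figure D4:**
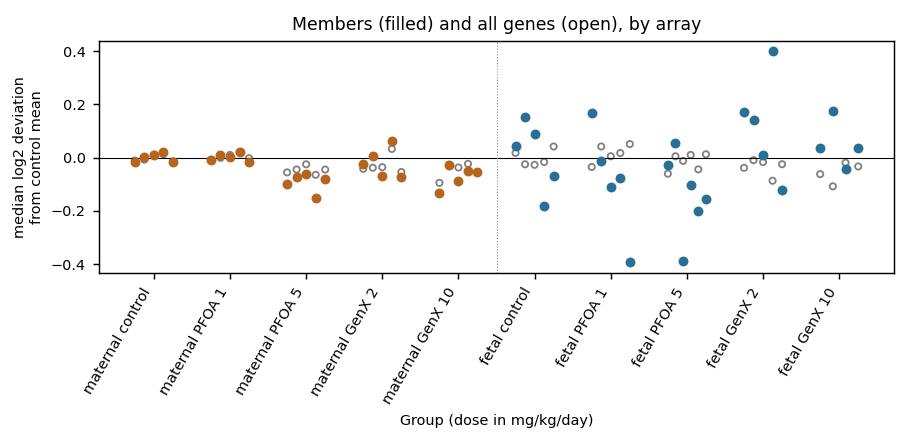
Median deviation of the 34 members (filled) and of all genes (open) from the control mean of the same tissue on each of the 50 arrays, in log2 units, by group. All genes stay near 0, whereas the members reach 0.40 on fetal GenX2 replicate 4 and -0.39 on fetal PFOA1 replicate 5 and fetal PFOA5 replicate 3.

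In maternal liver, where most members were below background, exposure moved few of them. Called members numbered 0 of 34 under PFOA1 (0.0325% of all genes called), 2 higher and 3 lower under PFOA5 (19.9%), 1 higher under GenX2 (3.37%) and 2 higher and 3 lower under GenX10 (13.8%), by limma over the 5 maternal groups. Under PFOA1, 2 members had an unadjusted p under 0.05. The members' counts are near the shares of all genes, 10.8% higher and 9.04% lower under PFOA5, 2.43% and 0.937% under GenX2, and 7.55% and 6.22% under GenX10. Slc25a37 and Car2 were the members that rose, and Hbb-y, Car1 and Tal1 those that fell. The median change of the 34 was 0.00 under PFOA1, -0.09 under PFOA5, -0.02 under GenX2 and -0.07 under GenX10, against 0.00, -0.05, -0.03 and -0.05 for all genes.

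Slc25a37 was the member called under 3 of the 4 exposures of the dam. The controls read 6.86, 6.76, 6.79, 6.53 and 6.41, PFOA1 6.94, 7.13, 7.10, 7.15 and 7.05, and PFOA5 7.37, 7.39, 7.51, 7.58 and 7.54. GenX2 read 7.58, 7.27, 7.32, 6.90 and 7.06 and GenX10 7.21, 7.0, 7.13, 6.96 and 7.20. In each exposed group all values lay above all controls (genes higher without overlap made up 0.439%, 8.05%, 2.48% and 6.1% of all genes under PFOA1, PFOA5, GenX2 and GenX10). Slc25a37 rose by 0.81 (SE 0.10, adjusted p = 2.23e-06) under PFOA5, by 0.56 (SE 0.10, adjusted p = 0.00126) under GenX2 and by 0.43 (SE 0.10, adjusted p = 0.00479) under GenX10. Under PFOA1 the change of 0.41 was not called (adjusted p = 0.22). The probe passed background on 1 of 5 arrays under PFOA5, 1 of 5 under GenX2 and none of the other maternal arrays, so these are differences near the floor of the array and no fold is given. Leaving out any 1 array kept the 3 calls, with changes of 0.74 to 0.86, 0.47 to 0.64 and 0.37 to 0.49. A filter on dim genes removed Slc25a37 from the maternal fits.

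Car2 read 8.32, 7.82, 7.56, 7.86 and 7.35 under PFOA5, above all controls, and 8.66, 7.19, 7.32, 7.78 and 7.13 under GenX10, where replicate 1 was the highest and replicates 2 and 5 fell inside the control range. It rose by 0.85 (SE 0.21, adjusted p = 0.00515) under PFOA5, at least 1.13-fold, and by 0.68 (SE 0.21, adjusted p = 0.0306) under GenX10. Without GenX10 replicate 1 the latter was 0.42 and no longer called, and the call was also lost without GenX10 replicate 4 (0.64) or any 1 of control replicates 2 to 5, or where only the groups compared were fitted. Under GenX2 Car2 read 7.46, 7.18, 7.49, 7.27 and 7.65 (change 0.47, adjusted p = 0.245, called with only the groups compared in the fit), and under PFOA1 6.84, 7.15, 7.32, 7.10 and 7.15 (change 0.18, adjusted p = 1), neither of them called in the fit of 5 groups. Car1 moved the other way, below background in every group. It read 4.32, 4.35, 4.12, 4.14 and 4.27 under PFOA5 and 4.24, 4.23, 4.24, 4.35 and 4.21 under GenX10, all under the lowest control of 4.64 (genes lower without overlap made up 7.35% and 6.55%). Car1 fell by 0.66 (SE 0.18, adjusted p = 0.0113) and by 0.65 (SE 0.18, adjusted p = 0.0185); the latter lost its call without control replicate 3 (-0.56). Under GenX2 it read 5.93, 5.01, 4.53, 4.59 and 4.36 and under PFOA1 4.61, 4.73, 4.76, 4.73 and 4.74, which overlap with the controls.

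Hbb-y fell by 1.00 under PFOA5 (SE 0.30, adjusted p = 0.0206) and by 0.98 under GenX10 (SE 0.30, adjusted p = 0.0308). The exposed arrays read 5.32, 5.65, 5.12, 5.03 and 4.99 under PFOA1, 5.28, 5.47, 5.03, 5.21 and 5.33 under PFOA5, 5.52, 5.51, 5.54, 5.08 and 5.32 under GenX2 and 4.84, 5.27, 5.13, 5.50 and 5.68 under GenX10. All were below background, as were all control arrays but replicate 1, and under PFOA5 and GenX2 none reached the lowest control value (under GenX2 1.39% of all genes were lower without overlap). The changes of -1.05 under PFOA1 (adjusted p = 0.452) and -0.87 under GenX2 (adjusted p = 0.122) were not called. Control replicate 1 carried much of these values: without it they were -0.59, -0.54, -0.41 and -0.52 under PFOA1, PFOA5, GenX2 and GenX10, with PFOA5 and GenX10 still called. The GenX10 call was lost without GenX10 replicate 1 (-0.87) or replicate 3 (-0.94), under repeated quantile normalization or median centring and where only the groups compared were fitted, and the PFOA5 call in that last fit. Hbb-bh1 lay between 4.71 and 5.75 and Hba-x between 6.43 and 7.25 over the 25 maternal arrays, with no called change. Hba-x was called lower under PFOA5 without control replicate 3 (-0.29) or 5 (-0.30) and under GenX10 without control replicate 3 or 5 (-0.33 each), and in both with array weights (-0.24 and -0.25).

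The adult beta globin probe read 10.31, 10.22, 10.57, 10.44 and 10.48 under PFOA1 and 11.05, 10.95, 9.93, 10.29 and 10.09 under PFOA5. It read 10.83, 10.72, 11.49, 10.49 and 10.62 under GenX2 and 10.72, 10.73, 10.62, 10.96 and 11.05 under GenX10. Changes of -0.08, -0.02, 0.34 and 0.33 were not called, and every group overlapped the controls. With only the groups compared in the fit, the GenX10 change was called. The maternal probe thus varied more between livers than the fetal one, whose arrays all lay near the top of the scale. Alas2 read 7.66, 8.71, 7.79, 7.84 and 7.62 under PFOA1, with replicate 2 the highest of all maternal arrays, and 7.98, 7.88, 7.41, 7.52 and 7.63 under PFOA5. It read 8.23, 7.95, 8.51, 7.52 and 7.71 under GenX2 and 7.62, 7.66, 7.57, 7.75 and 7.65 under GenX10, again uncalled and overlapping. Tal1 fell by 0.30 under PFOA5 (SE 0.07, adjusted p = 0.00599), from control values of 6.91, 6.92, 6.96, 6.64 and 6.89 to 6.51, 6.40, 6.78, 6.54 and 6.62.

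Under GenX10 Tal1 read 6.50, 6.61, 6.54, 6.82 and 6.58 and fell by 0.26 (SE 0.07, adjusted p = 0.0228), a call lost without control replicate 2 or 3 or without GenX10 replicate 1 or 3, and under median centring. Tal1 read 6.88, 6.77, 6.75, 6.97 and 6.85 under PFOA1 and 6.61, 6.70, 6.87, 6.77 and 6.77 under GenX2, both uncalled. Control replicate 4 was the lowest control for Tal1 and lay inside the exposed ranges, and all maternal values were below background. Gata1, Klf1 and Bcl11a stayed below background in the dam, with Gata1 between 6.08 and 6.37, Klf1 between 6.05 and 6.37 and Bcl11a between 5.06 and 5.44 over all 25 arrays. Epor lay between 6.81 and 7.09, Slc4a1 between 6.98 and 7.26 and Rhd between 5.41 and 5.74, also below background throughout. None of these 6 was called in any maternal exposure. Tspan33 under GenX2, named here after its values were seen, read 7.65, 7.67, 7.84, 7.74 and 7.61, all above the controls, without a call (0.15, adjusted p = 0.122), though called with median centring (0.20).

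**Figure D5:**
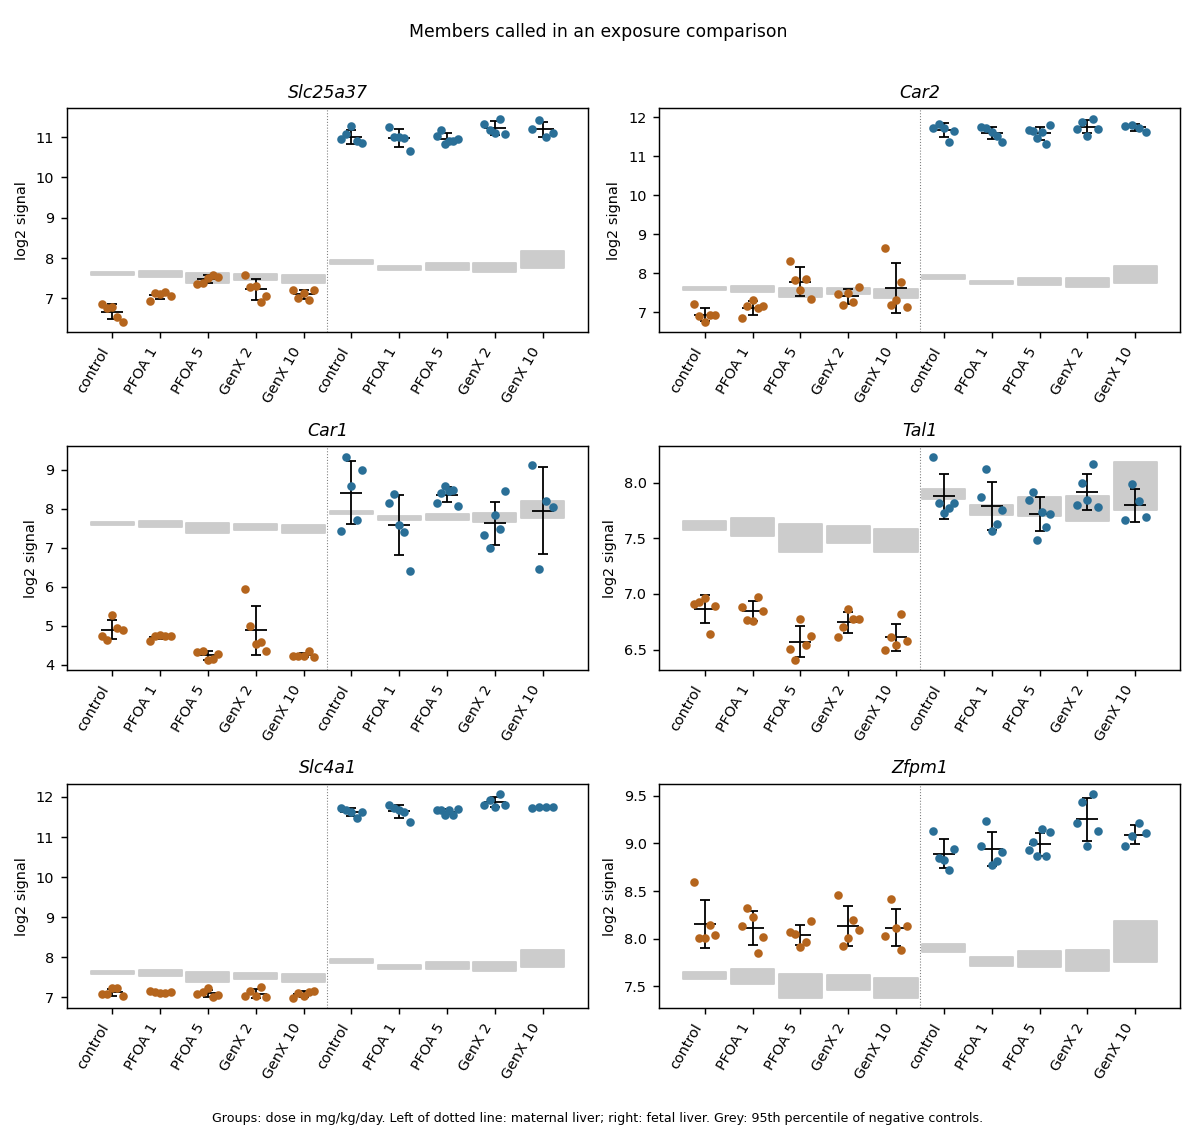
Log2 signal of Slc25a37, Car2, Car1, Tal1, Slc4a1 and Zfpm1, the called members other than the globin, on every array by tissue and treatment group, with the mean and SD of each group. Maternal Slc25a37 lies above all controls in each exposed group, maternal Car1 lies below all controls under PFOA5 and GenX10, and fetal Slc4a1 lies above all controls under GenX2.

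Other cell markers also moved in the dam. Of 12 macrophage and Kupffer cell genes, 5 rose under PFOA5 (Cd5l, Cd68, C1qb, Adgre1 and Vsig4, list median 0.45), 0 under GenX2 and 3 under GenX10 (list median 0.42), and the list's mean level ranged over 6.93 to 7.68 on control, 7.11 to 7.97 on PFOA5 and 7.39 to 8.0 on GenX10 arrays. Of 19 proliferation genes 14 fell under PFOA5, 12 under GenX2 and 14 under GenX10, with mean levels of 6.08 to 6.64 on control, 5.80 to 6.14 on PFOA5, 5.78 to 5.93 on GenX2 and 5.83 to 6.18 on GenX10 arrays. Of these 19, 17 were below background on every control array, and 19, 19 and 18 under PFOA5, GenX2 and GenX10, so the falls lie near the floor. Over all genes, 10.8%, 2.43% and 7.55% were called higher in these groups and 9.04%, 0.937% and 6.22% lower. Of 14 hepatocyte genes, 1 rose and 3 fell under PFOA5, and 1 rose and 1 fell under GenX2 and likewise under GenX10. Under PFOA5 1 of 7 B lymphoid and 1 of 9 endothelial genes fell and 0 rose, and 0 of either list were called under GenX2 or GenX10. Granulocyte genes, 12 of 12, were below background on every maternal array, with 1 called lower under PFOA5 and 1 under GenX2. No megakaryocyte gene was called by limma, with 0, 2, 0 and 1 at an unadjusted p under 0.05 under PFOA1, PFOA5, GenX2 and GenX10, and no macrophage gene reached that p under GenX2. Their part in the changes of Slc25a37, Car2, Car1, Tal1 and Hbb-y was not tested.

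Between doses of one compound, members differed in the PFOA-exposed dams. From PFOA1 to PFOA5, 2 were called higher and 2 lower (18.7% of all genes called, 10.2% higher and 8.52% lower), namely Car2, which rose by 0.67 (SE 0.21, adjusted p = 0.0271), Slc25a37, which rose by 0.40 (SE 0.10, adjusted p = 0.00643), Tal1 with a change of -0.27 (SE 0.07, adjusted p = 0.012), and Slc25a38 with one of -0.18 (SE 0.06, adjusted p = 0.0246). Slc25a38, named after its values were seen, read 7.15, 6.99, 6.92, 7.10 and 7.04 under PFOA1 and 6.79, 6.95, 6.91, 6.77 and 6.86 under PFOA5, with an overlap and below background. Car2 and Slc25a37 were higher without overlap (7.41% of all genes), and Nfe2, Add2 and Car1 were lower without overlap (6.78%) but not called. With array weights all 3 were called, and Car1 (-0.47) also with only the groups compared in the fit and Add2 (-0.20) without PFOA5 replicate 3. The Car2 call was lost without PFOA1 replicate 1 or 4 or without PFOA5 replicate 1, 2 or 4, and the Slc25a38 call without replicate 1 or 4 of either group, with median centring and with only the groups compared in the fit. The GenX doses gave 0 called members by limma in the dam (0.237% of all genes, 3 members at an unadjusted p under 0.05), with Car1 lower at GenX10 than at GenX2 without overlap (0.595% of all genes), and in the fetus both dose comparisons gave 0 (PFOA 0.0488% of all genes and 0 members at that p, GenX 0% and 1 member).

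A test of the difference of an exposure's effect between the tissues called 2 members under PFOA5, both lower in the fetus than in the dam (4.48% of all genes called, 1.77% higher and 2.71% lower), and by limma 0 under PFOA1 (0.179%), GenX2 (1.28%) and GenX10 (2.04%), with 2, 4 and 1 members at an unadjusted p under 0.05. Under PFOA5 the log2 change of Slc25a37 was -0.05 in the fetus and 0.81 in the dam, a difference of -0.85 (SE 0.14, adjusted p = 8.42e-05). Fetal Slc25a37 read 10.94, 11.08, 11.27, 10.91 and 10.84 in controls and lay between 10.82 and 11.18 (median 10.93) on the 6 arrays of PFOA5. That of Car2 was -0.08 in the fetus and 0.85 in the dam, a difference of -0.92 (SE 0.23, adjusted p = 0.0107), and fetal Car2 lay between 11.30 and 11.79 (median 11.64) on the 6 arrays of fetal PFOA5. In both genes the fetal groups overlapped at a high level and the maternal groups stood apart at a low one. Control means were 11.01 in the fetus and 6.67 in the dam for Slc25a37, and 11.66 and 6.94 for Car2. An equal rise in signal gives a smaller log2 change at a higher level. Whether the rise in signal itself differed between the tissues was not tested. Both calls were kept when any 1 of the 21 arrays was left out.

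Among the other erythroid genes, members of each list but the globins were called in the dam, to be read against the shares of all genes called higher and lower, 10.8% and 9.04% under PFOA5, 2.43% and 0.937% under GenX2 and 7.55% and 6.22% under GenX10. Under PFOA5, 5 of 21 maturation and haem genes rose, among them the biliverdin reductase Blvrb (0.71), the ubiquitin enzyme Ube2l6 (1.04) and the haem enzyme Cpox (0.62), and 3 fell, among them Alad (-0.57). Under GenX2 3 rose (Blvrb 0.56, Fech 0.39 and Cpox 0.66) and 1 fell, and under GenX10 6 rose (Blvrb 0.62, Bnip3l 0.32 and Ube2l6 0.63 among them) and 2 fell. Of 13 membrane genes, 1 rose and 2 fell under PFOA5 (Mpp1 0.55, Slc43a1, an amino acid transporter, -1.39, and Dmtn -0.15), 1 fell under GenX2 (Slc43a1 -0.72), and 1 rose and 1 fell under GenX10 (Mpp1 0.54 and Slc43a1 -1.08). Of 18 regulators, 2 rose and 3 fell under PFOA5 (Cbfa2t3 0.43, Sox6 0.18, Stat5b -0.39, Stat5a -0.25 and Kit -0.25), 0 were called by limma under GenX2 with 4 at an unadjusted p under 0.05, and 1 rose under GenX10 (Cbfa2t3 0.61); Sox6 and Kit are named here after their values were seen. Under maternal PFOA1 none of these genes was called by limma, and 2, 2, 2 and 3 genes of the globin, regulator, membrane and maturation lists had an unadjusted p under 0.05. In fetal liver the single call in these lists was Runx1 under GenX10 (-0.18), and the maturation list had 1, 3, 3 and 5 genes at an unadjusted p under 0.05 under PFOA1, PFOA5, GenX2 and GenX10. The PFOA5 effect differed between the tissues for Blvrb (-0.76), Ube2l6 (-1.28), Mpp1 (-0.52), Slc43a1 (1.25) and Stat5b (0.32), given as fetal minus maternal. Many of these genes are also active outside the erythroid lineage, and the cells that carry the maternal changes were not tested.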

How the data were processed

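Maternal and fetal liver RNA was measured on 50 arrays. The authors deposited log2 signals, which they computed with RMA, as the submitters' processing notes state; mm10 is the genome build named there. No source used here says if all arrays were normalized in one run. Labels require an RNA integrity number above 5. Probes with symbols of several genes (1534) were left out, apart from the probe read for Hbb-bt, and 30744 genes were tested.

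Arrays were grouped by title. Models were fitted with limma 3.58.1 in R 4.3.3 (with the package data.table, version 1.17.8), over the 5 groups of a tissue or, between tissues, over all 10 groups, for 17 comparisons. A gene was called at a two-sided Benjamini-Hochberg adjusted p under 0.05 over all genes. Tables and figures used Python 3.11.15, pandas 2.3.3, numpy 2.4.6 and matplotlib 3.10.9. The code was tested on simulated data. The number of arrays limits the precision.

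Members and lists were chosen with earlier results of these data known. Values by array were chosen for the globins, Gata1, Klf1, Bcl11a, Epor, Alas2, Slc4a1, Rhd, members called under an exposure, and the 8 largest log2 differences between tissues. They are given for the groups in which each gene is described, which for Kel, Ermap and Trim10 are the controls alone. A range stands for fetal PFOA5 arrays. It also stands for exposed arrays of a gene below background on every array of a tissue, unless called there. From each further erythroid list up to 3 genes are named per comparison, by adjusted p. Replicate numbers were not used to pair arrays in the main fits. Residuals of the same number correlated by -0.017 on average over 50 maternal pairs (-0.252 to 0.242). The average was 0.023 over 46 fetal pairs (-0.543 to 0.592) and -0.056 over 24 pairs of dam and fetus (-0.33 to 0.179). Pairs of different numbers averaged 0.004, -0.005 and 0.013. Such averages cannot exclude a pairing, because livers of a pair need not share residuals.

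Alternatives were a filter on dim genes, an intensity trend in the fit, repeated quantile normalization, median centring, array weights, fits of only the groups compared, a replicate block, leaving out or moving the arrays in doubt, and leaving out each array.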

Additional observations from a re-analysis of the deposited data

Results flagged for a closer look

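The 20 named members gave 200 groups of 4 to 6 arrays. In 14 of them the gap of 1 array to its nearest other, as a share of the group's range, exceeded Dixon's critical value. About 1 in 20, or 10, would do so by chance. Among the globins these were Hbb-y on maternal control replicate 1 (8.11, nearest 6.06), Hbb-bh1 on fetal PFOA1 replicate 1 (6.36, nearest 5.44), Hba-x on maternal GenX10 replicate 4 (6.66, nearest 6.57) and Hbb-bt on fetal PFOA1 replicate 1 (12.98, nearest 12.83). Among the regulators they were Gata1 on maternal control replicate 2 (6.31), Klf1 on fetal GenX2 replicate 4 (9.35, nearest 8.57), Tal1 on maternal control replicate 4 (6.64) and on fetal control replicate 1 (8.24), and Zfpm1 on maternal control replicate 1 (8.59). The others were Alas2 on maternal PFOA1 replicate 2 (8.71, nearest 7.84), Ermap on maternal GenX10 replicate 1 (6.36), Rhag on fetal GenX2 replicate 4 (11.41, nearest 10.84), and Car1 on maternal PFOA1 replicate 1 (4.61) and maternal GenX10 replicate 4 (4.35).

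The log2 change under PFOA5 differed between fetus and dam by limma for Car2 (fetal minus maternal -0.92, adjusted p = 0.0107) and Slc25a37 (-0.85, adjusted p = 8.42e-05), each higher in the exposed dams than in their controls.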

How the results depend on the processing

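No change of a member reversed direction where called: of 12635 values under the alternatives, 12546 kept their side of the threshold, 48 lost a call and 41 gained one; of 379 counts of called members, 346 stayed within 1.5 times. With an intensity trend fetal GenX2 had 1 called member. With a filter on dim genes, which left 5 maternal and 27 fetal members, maternal PFOA5 had 1, GenX2 0, GenX10 1 and PFOA5 against PFOA1 1. Slc25a37, Hbb-y, Tal1, Car1 and Slc25a38 were above background on fewer than 4 maternal arrays. The filter removed them from the maternal fits, so their calls there were not tested again. Fetal GenX10 had 1 called member under the filter, where fewer genes were tested. Repeated quantile normalization gave 0 in fetal GenX2. Median centring gave 2 in maternal GenX2, 3 in maternal GenX10 and 1 in fetal GenX10. Array weights gave 11 in maternal PFOA5 (2 higher, 9 lower) and 9 in PFOA5 against PFOA1. Fits of only the groups compared gave 2 in maternal GenX2 and 0 in fetal GenX2. Fetal GenX2 had 1 with 2 arrays placed by source name and 0 without the low Xist arrays. Apart from fewer tested genes, members or arrays, the cause was not tested. Leaving out 1 array at a time gave 5 to 7 in maternal PFOA5, 2 to 6 in maternal GenX10 (2 without GenX10 replicate 1), 2 to 7 in PFOA5 against PFOA1 (7 without PFOA5 replicate 3), 0 to 2 in fetal GenX2, 0 to 1 in fetal GenX10 and 32 to 34 between the tissues; maternal PFOA1 and fetal PFOA1 and PFOA5 stayed at 0 to 0. The replicate block left 5 called members in maternal PFOA5, 5 in maternal GenX10, 1 in maternal GenX2, 2 in fetal GenX2 and 32 between the tissues, and changed no other count. Signals near the negative controls limit what can be read of most members in the dam.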
